A study of Mus musculus with 6 samples.

Results

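Gpnmb, the gene of the transmembrane glycoprotein NMB, was examined as 1 gene of the 9295 measured in this series. It was taken by its symbol (gene ID 93695) and was chosen by the difference of its counts between the groups, so that difference is described here without a test. RNA was measured in 6 mouse bone marrow samples whose labels give the cell type as leukemia and the design as acute myeloid leukemia (AML). The 3 libraries called Con carry the genotype PAPOLA flox/flox. In a flox allele recombination sites flank part or all of a gene, here Papola, which encodes poly(A) polymerase alpha. The gene is intact until these sites recombine, and the labels do not say which part they flank. The 3 libraries called KO carry the genotype PAPOLA KO. The flox allele is named for Con only, and the driver of recombination, the leukemic oncogene, the strain, the age and the number of animals are not stated by the labels. Nor do they say whether the 3 samples of a group are separate animals, and if they are not, p-values reflect a spread that may be technical alone.

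GPNMB is a heavily glycosylated type I membrane protein of endosomes, lysosomes and the cell surface, and a relative of the melanosome protein PMEL. Macrophages, dendritic cells, osteoclasts and melanocytes make it, and its other names are osteoactivin and DC-HIL. In macrophages it is induced under lysosomal and lipid load, where its gene is a known target of the MiT/TFE transcription factors, and it marks lipid-laden macrophages. Its ectodomain can be shed by ADAM proteases and binds heparan sulfate proteoglycans such as syndecan-4.

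The start of the gene is shown as the sequence that was searched for motifs. Both stretches are from RefSeq, build GRCm38.p6, plus strand. The first holds the 100 bases before the annotated start, and the second, at chr6:49036520-49036549, runs from base 3 to base 32 after it. Capitals mark the matches to the motifs searched.
Gpnmb upstream, chr6:49036418-49036517: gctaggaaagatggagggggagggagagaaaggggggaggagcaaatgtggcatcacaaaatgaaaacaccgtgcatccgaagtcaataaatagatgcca
Gpnmb after the start: ggcaagTGACTCAtgagcacgagttgttaa
The window from 250 bases before to 50 after the start was searched on both strands for 5 motifs. The AP-1 motif TGANTCA was found 1 time, at base 9 after the start, and it is present in 7.81% of the 32851 promoter windows of that length. The palindromic E-box CACGTG (7.15% of windows), the E-box CATGTG of the kind MITF binds (14.2%), the TATA box TATAAA (13.6%) and the PU.1-type core GAGGAA (28.3%) were not found in this window.

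Column totals were 11253932 to 11436216 counts in Con and 8875022 to 9768143 in KO, over 42.1% of the protein-coding genes in the mouse RefSeq table. Papola had 3642 to 3779 counts in Con and 2440 to 2929 in KO. It was not lower in KO after scaling by the trimmed mean of M-values (TMM), with a log2 fold change of 0.22 (edgeR quasi-likelihood test, adjusted p = 0.0291). Counts over the deleted exons were not analysed here, so the gene's level does not check the labels, and every direction below is that of the libraries labelled KO against those labelled Con. Con replicates 2 and 3 were closer to each other than any other pair, with a chi-square per degree of freedom of 1.68 against 17.71 to 23.69 for the other pairs within a group. The labelled tissue was compared with marker lists of marrow cells. In Con, 11 neutrophil markers held 0.2735% to 0.28% of counts and 8 erythroid markers 0.00715% to 0.014%. In KO these lists held 14.43% to 16.63% and 1.478% to 2.15%. The red cell gene Slc4a1 had 1 count in each Con library and the neutrophil surface gene Ly6g 9, 2 and 5. Other listed neutrophil genes were abundant in Con, such as Lcn2 (10198 to 11217 counts) and Mmp8 (8698 to 9872). The Con libraries thus nearly lacked some defining genes of the labelled tissue and may not represent whole marrow. A difference in the cells sampled and the genotype cannot be told apart in any comparison below.

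Gpnmb was among the most abundant messages in Con and below the median gene in KO. In the order of their replicate numbers, the Con libraries held 133204, 208223 and 196571 Gpnmb counts. The KO libraries held 79, 53 and 70. The groups lay far apart, and within Con replicate 1 was the low one. Its counts were whole numbers in all 6 libraries, unlike those of the 1449 genes with a fractional estimate in some library. Exact 95% Poisson intervals of the KO counts were 62.5 to 98.5, 39.7 to 69.3 and 54.6 to 88.4, and cover counting error only. Of all counts, Gpnmb took 1.18%, 1.82% and 1.75% in Con, and 0.000809%, 0.000588% and 0.000789% in KO. In counts-per-million (CPM) after TMM scaling, its level was 14060 ± 3451 in Con and 8.26 ± 1.5 in KO (SD, n = 3 each). The fitted log2 fold change, KO minus Con, was -10.73 (SE 0.29), a level 1699-fold lower in KO. In these bulk samples, fewer cells of a type and less RNA per cell cannot be told apart. Erythroid and neutrophil marker shares moved in the opposite direction, as given above, and their part in the result was not tested.

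By count, Gpnmb ranked 5, 2 and 2 among 9295 genes in Con replicates 1, 2 and 3. In Con replicate 1 the gene next above was Psap, the precursor of lysosomal saposins (134462 counts), and the gene next below was Gapdh, a glycolytic enzyme. In Con replicate 2 it stood between Fth1 and Ftl1, the ferritin chains, and in Con replicate 3 between Fth1 and Psap. In KO replicates 1, 2 and 3 its ranks were 6305, 6644 and 6383. There it was tied in count with other genes, while the median gene had 242, 227 and 226 counts. A rank by count favours long transcripts. Divided by the length of the longest transcript (3701 bases for Gpnmb), counts per kilobase ranked it 9, 6 and 6 in Con and 6390, 6734 and 6459 in KO, among the 9099 genes with a length.

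Few abundant genes were as far apart between the groups. Of 8358 genes tested, 4 had a fitted log2 fold change at or below that of Gpnmb, Gpnmb included. Among the 90 genes with a mean Con level of at least 1000 CPM, 3 did. These were Gpnmb, Mmp12, the macrophage metalloelastase (-12.41), and Arg1, arginase 1 (-11.25). The fourth gene was Tph1, a tryptophan hydroxylase, with 2865, 1564 and 1460 counts in Con and no count in any KO library, so its fitted value is no measure of size.

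**Figure D1:**
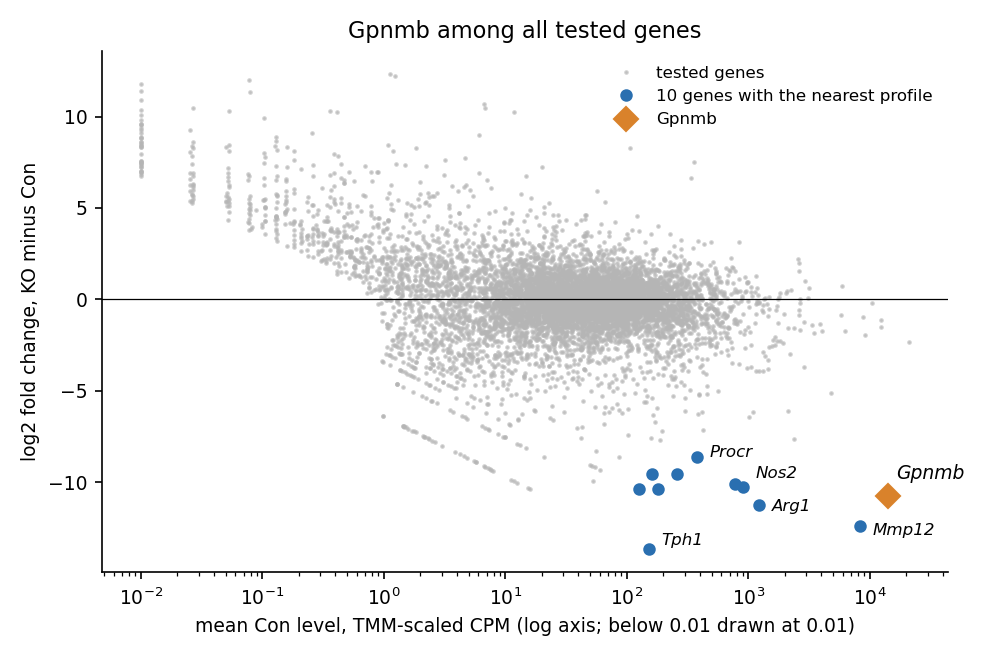
Each point is a tested gene, with its mean Con level in TMM-scaled CPM on a log axis against its log2 fold change, KO minus Con. Gpnmb (orange diamond) lies at 14060 CPM and -10.73, to the right of the 10 genes with the nearest profile (blue), and slanted rows at low levels are genes with few counts.

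Within Con the libraries differed in Gpnmb more than in nearly all other abundant genes. This spread was not used to choose the gene. Its coefficient of variation was 24.6% in Con. Of the 200 tested genes nearest in level (543 to 21150 CPM), 2 had a value as high, and their median was 6.75%. In KO its coefficient of variation was 18.1%, and 100 of the 200 nearest genes were as variable. The Con spread came from replicate 1, whose scaled level was 0.629 of the mean of replicates 2 and 3. Of 6429 tested genes with a mean Con level of at least 10 CPM, 53 had a ratio that low, and the median ratio was 0.998. With 1 library on one side and a pair of close libraries on the other, this ratio has no replicate check.

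Listed genes of lipid-laden macrophages and lysosomes were also lower in Con replicate 1. Among listed genes of at least 10 CPM in Con, the ratio was below 1 in 20 of 22 lipid-associated macrophage genes (median 0.754), in 24 of 24 lysosomal genes (median 0.842) and in 9 of 10 macrophage markers (median 0.789). Over all genes at that level it was below 1 in 3245 of 6429. Spp1, osteopontin, had 37788, 70967 and 72497 counts in Con replicates 1, 2 and 3 (ratio 0.503). Ctsk, cathepsin K, had 1403, 2622 and 2631 (0.510), and Lpl, lipoprotein lipase, 4423, 7377 and 7469 (0.569). These genes were named after their values were seen. Replicate 1 was again the low library in each. The lipid and lysosomal lists share 6 genes, so their counts are not separate. Not every list or gene had replicate 1 low. The ratio was below 1 in 1 of 5 dendritic cell markers (median 1.34) and 2 of 6 blast and progenitor markers (1.14). It was below 1 in 0 of 2 erythroid markers (1.66), 3 of 7 neutrophil markers (1.01) and 3 of 6 monocyte markers (0.972). The class II gene H2-Aa had 4019, 2732 and 2704 counts (1.41) and Gata2, a stem and mast cell factor gene, a ratio of 1.37, both also named after their values were seen.

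**Figure D2:**
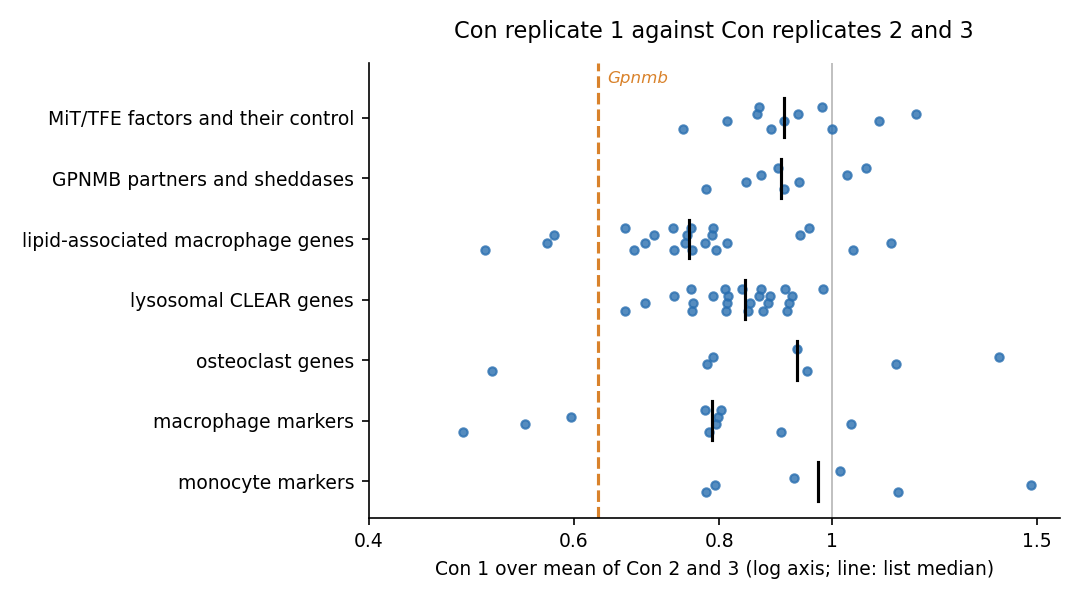
For listed genes with at least 10 CPM in Con, each point is the scaled level in Con replicate 1 over the mean of Con replicates 2 and 3, on a log axis, with the list median as a black line. The dashed line is Gpnmb at 0.629, and the lysosomal genes all lie below 1 with a median of 0.842.

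The genes whose profile over the 6 libraries was most like that of Gpnmb were sought by Euclidean distance between log2 CPM profiles, each centred on its own mean, among 6428 genes with at least 10 CPM in Con. Their values are a description, since likeness to Gpnmb fixes their direction. The nearest was Arg1 (distance 0.843), with 14206, 16281 and 16422 counts in Con and 3, 5 and 4 in KO. Next came Nos2, inducible nitric oxide synthase (1.244), and the chemokine gene Ccl7 (1.596). Tph1, Ahnak2, Mmp12, Ccn3, the chemokine genes Ccl22 and Ccl24 and Procr, the endothelial protein C receptor (2.854), made up the 10, against a median distance of 12.914 over all candidates. Each of the 10 had at most 20 counts in any KO library, so the prior count of 2 weighs on these distances and their order. Tph1, without KO counts, was set to -2.389 log2 CPM in each KO library. Ahnak2, with 1, 0 and 1 KO counts, had a fitted log2 fold change of -10.39 but stood at place 5. Within Con the 10 genes did not share one order. In 6 of them Con replicate 1 was lower than the mean of replicates 2 and 3, as in Gpnmb, for example Ccl7 at 0.642 and Procr at 0.675. In the other 4 it was higher, with Tph1 at 1.81, Ccl22 at 1.67, Ccl24 at 1.61 and Ccn3 at 1.55. By Pearson correlation over the 6 libraries, 727 candidates reached 0.99 or above, and 2 of the 10 highest were among the 10 nearest by distance. Correlation over these libraries therefore hardly separates Gpnmb from the many genes that differ between the groups.

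Of the MiT/TFE factors, which bind E-boxes in lysosomal and pigment genes, Mitf and Tfec fell and Tfeb rose. Mitf, the factor of melanocytes and osteoclasts, had 472, 612 and 599 counts in Con and 69, 97 and 98 in KO. This is 43.9 ± 7.07 CPM in Con and 10.9 ± 2.46 CPM in KO, a log2 fold change of -2.02 (SE 0.19, edgeR adjusted p = 5.76e-06). Tfec, a myeloid member, had 1711, 2022 and 2007 counts in Con and 429, 505 and 344 in KO (-1.52, SE 0.14, adjusted p = 5.08e-06). Tfeb, the main lysosomal regulator, had 238, 187 and 198 counts in Con and 477, 451 and 476 in KO. Its level went from 16.2 ± 1.7 to 57.5 ± 3.21 CPM (1.83, SE 0.11, adjusted p = 3.09e-07). For each of the 3 factors the groups did not overlap, which held for 84.6% of all genes tested. Tfe3 was not analysed here.

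Genes that control these factors through nutrient signalling mostly fell too. Of 11 genes tested in the list of factors and their control, 9 fell and 2 rose, where 42.4% of all tested genes fell and 39.6% rose (3544 and 3310 genes, or 4476 and 2488 when scaled by library size alone). The list median log2 fold change was -0.65, and that of all tested genes -0.06. Fnip2, a partner of folliculin, fell (-2.57, SE 0.11), as did its paralog Fnip1 (-0.35, adjusted p = 0.0132) and Flcn, folliculin itself (-0.60). The Rag GTPase genes Rragc (-0.55) and Rragd (-1.60) fell. So did Mtor, the kinase that keeps these factors in the cytoplasm (-0.65), and Rptor, its partner in complex 1 (-1.01). The second gene that rose was Lamtor1, an anchor of that complex on lysosomes (0.34). With library size as the only scaling its log2 fold change was -0.02 (adjusted p = 0.841). Fnip1 did not pass without Con replicate 2 (adjusted p = 0.0754) or with Con replicates 2 and 3 summed (0.0505).

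Genes of proteins described as partners or sheddases of GPNMB were lower in RNA in 8 of 9 tested and higher in 1 (edgeR). Of all tested genes 42.4% were lower and 39.6% higher. The list median was -1.29. Sdc4, syndecan-4, had 1196, 1063 and 1074 counts in Con and 122, 204 and 242 in KO (-1.89, SE 0.22, adjusted p = 4.22e-05). The integrin genes Itga5 (-2.96), Itgav (-1.90) and Itgb1 (-1.29) fell. So did the sheddase genes Adam17 (-1.77) and Adam10 (-0.55), and Atp1b3, a sodium pump subunit (-0.80). Egfr, a growth factor receptor, rose (2.28, SE 0.32, adjusted p = 0.000113), but on 6 to 8 counts per library in Con and 20 to 28 in KO. Each of these changes was small beside that of Gpnmb.

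Genes known to accompany Gpnmb in lipid-laden macrophages fell in 20 of 23 tested and rose in 3. Of all tested genes 42.4% fell and 39.6% rose. The list median was -2.16. Mmp12 is on this list. The next lowest was Spp1, from 4746 ± 1635 to 134 ± 33.1 CPM (-5.14, SE 0.32, adjusted p = 7.89e-07). Atp6v0d2, a proton pump subunit of macrophages and osteoclasts, had 1188, 1483 and 1392 counts in Con and 60, 72 and 48 in KO (-3.85, SE 0.16, adjusted p = 3.39e-08). The fatty acid carrier gene Fabp5 (-3.56), the scavenger receptor gene Cd36 (-3.35) and Trem2, a lipid-sensing receptor (-2.53), fell as well. The 3 that rose were Apoe, which encodes apolipoprotein E (6.51, SE 0.18), Axl, a receptor for dying cells (3.01, SE 0.23), and Tyrobp, the signalling adaptor of TREM2 (1.86, SE 0.11). Trem2 and its adaptor gene thus moved apart. Spp1, Cd36 and Trem2 were named after their values were seen.

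Lysosomal genes of the set that MiT/TFE factors bind (the CLEAR network) fell in 21 of 25 tested and rose in 3, and 6 of them are also on the lipid list. Of all tested genes 42.4% fell and 39.6% rose. The median log2 fold change of the lysosomal list was -1.71. Gaa, whose enzyme degrades glycogen, had 3664, 3789 and 3834 counts in Con and 401, 411 and 400 in KO (-2.56, SE 0.085, adjusted p = 1.18e-08). Naglu, of heparan sulfate breakdown (-2.65), fell, as did Ctsl, cathepsin L (-2.58). The 3 that rose were Map1lc3b, the autophagosome protein LC3B (1.27), Ctsf, cathepsin F (0.86), and Wipi1, an early autophagy protein (0.79). Atp6v1d, a proton pump subunit, did not pass the test (0.02, SE 0.11, adjusted p = 0.886). The lowest of these lysosomal genes was Atp6v0d2 at -3.85, beside -10.73 for Gpnmb.

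**Figure D3:**
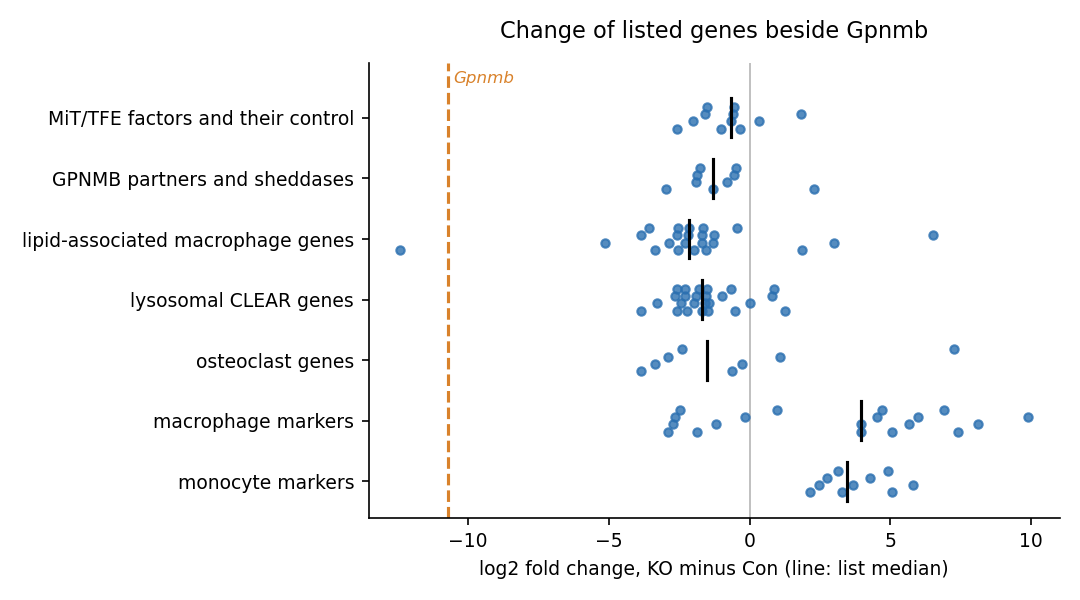
Each point is a tested gene of a list, at its log2 fold change, KO minus Con, with the list median as a black line and Gpnmb as the dashed line at -10.73. The lysosomal genes have a median of -1.71, the macrophage markers one of 3.96, and Mmp12 is the single listed gene to the left of Gpnmb.

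Other cell types that make Gpnmb were examined through their own genes. Of 8 osteoclast genes tested 6 fell and 2 rose, with a median of -1.52, where 42.4% of all tested genes fell and 39.6% rose. Ctsk (-2.89, SE 0.27) and Clcn7, the chloride exchanger of the resorbing membrane (-2.41), fell. Dcstamp, a fusion protein, fell (-3.35) from 53 to 73 counts per Con library. Mmp9, a gelatinase that neutrophils also make, had 325, 207 and 239 counts in Con and 27791, 21657 and 24958 in KO (7.25, SE 0.19), and Nfatc1, the osteoclast transcription factor, rose by 1.09. Of the pigment cell list 4 genes were tested. Rab38 (-2.40) and Slc24a5 (-1.52) fell, and Rab27a (1.61) and Tspan10 (3.08) rose. Tspan10 had only 3, 1 and 4 counts in Con and 15, 13 and 17 in KO. The relative Pmel and the pigment enzymes Tyr, Tyrp1 and Dct were not analysed here. Of 11 dendritic cell markers 4 rose and 6 fell, shares near those of all tested genes (39.6% and 42.4%). Siglech of plasmacytoid cells rose by 9.08 (edgeR adjusted p = 1.72e-08), from only 5, 3 and 2 counts in Con to 1138, 980 and 1463 in KO. Ccr7, a migration receptor, fell (-3.20).

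Macrophage markers did not follow Gpnmb as a group. Of 19 tested, 12 rose, 6 fell and 1 did not pass, where 39.6% of all tested genes rose and 42.4% fell. The median log2 fold change of these markers was 3.96. Their summed level was 2741 to 3570 CPM in Con and 2247 to 3648 in KO, so the groups overlapped. Cd68, a lysosomal membrane protein, had 14729, 18066 and 18116 counts in Con and 1042, 1677 and 1626 in KO (-2.89, SE 0.21, adjusted p = 2.23e-06). Adgre1, the F4/80 antigen, had 10664, 12981 and 12578 in Con and 964, 1388 and 1267 in KO (-2.67, SE 0.17, adjusted p = 7.05e-07). The complement genes C1qa, C1qb and C1qc were the reverse, with 16 counts of C1qa in each Con library and 1223, 2211 and 1674 in KO (7.38, SE 0.31). Vsig4, a complement receptor of resident macrophages, had 0, 0 and 1 counts in Con and 30, 38 and 41 in KO. No macrophage marker was at 0 in a KO library. All 10 monocyte markers rose (median 3.46), against 39.6% of all tested genes. Among them were F13a1, coagulation factor XIII (5.05), and Ccr2 (3.66). The summed level of the 10 was 288 to 319 CPM in Con and 3656 to 4732 in KO.

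**Figure D4:**
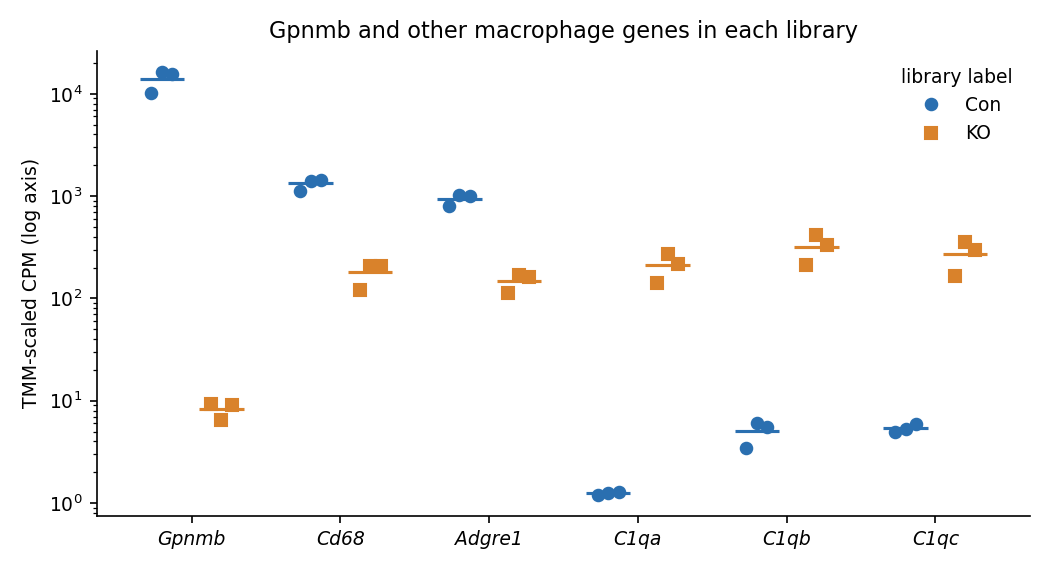
TMM-scaled CPM of Gpnmb and 5 macrophage markers on a log axis, with 1 point per library, Con in blue and KO in orange, and the mean of 3 libraries as a line. Gpnmb, Cd68 and Adgre1 are higher in every Con library, with Gpnmb spanning 14060 to 8.26 CPM, while the 3 C1q genes are higher in every KO library.

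Gpnmb was also set against other macrophage genes in the same library. The ratio of counts per kilobase of Gpnmb to those of Cd68 was 3.01, 3.83 and 3.61 in Con and 0.0252, 0.0105 and 0.0143 in KO. Against Adgre1 it was 10.9, 14.0 and 13.7 in Con and 0.0717, 0.0334 and 0.0483 in KO. Against Mitf it was 372, 449 and 433 in Con and 1.51, 0.721 and 0.942 in KO. These ratios do not depend on scaling between libraries. Against Mmp12 the ratio went the other way, from 1.89, 2.15 and 2.07 in Con to 4.78, 5.83 and 14.1 in KO, where Mmp12 had 20, 11 and 6 counts. These ratios use the same Gpnmb counts that chose the gene, so they restate the fold changes without scaling and are no further support.

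Near Gpnmb on chromosome 6, the 6 closest protein-coding genes on each side were examined, and 4 of these 12 were measured. Igf2bp3, an RNA-binding protein gene, fell from 22.1 ± 3.31 to 2.42 ± 0.614 CPM (-3.18, SE 0.21, adjusted p = 7.07e-07), and Tmem176a, a membrane protein gene, fell (-0.69). Tra2a, a splicing factor gene that lies next after Igf2bp3, rose from 133 ± 1.79 to 468 ± 69 CPM (1.81, SE 0.11, adjusted p = 4.29e-07). Fam221a did not pass the test (-0.40, SE 0.22, adjusted p = 0.123), but it did with library size only (-0.76, adjusted p = 0.00875) and without KO replicate 1 (-0.66, adjusted p = 0.0168). Measured neighbours thus moved in both directions, as did all tested genes (42.4% fell and 39.6% rose), and none by as much as Gpnmb.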

How the data were processed

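The deposited table holds estimated counts (expected counts) of reads per gene, not scaled, per the file headers. Libraries were made with a BGI mRNA kit from TRIzol RNA, per the labels' protocols. For aligner and counting tool, the sources used here give no name. The build GRCh38, a human assembly, is listed per the submitters' processing notes, while the gene IDs are those of mouse. Of 9295 genes, 1449 carried a count that is not whole. Columns were matched to libraries by name, with 0 left unused.

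Counts were rounded and tested in R 4.3.3 by the two-sided robust quasi-likelihood test of edgeR 4.0.16, without covariates, after filterByExpr by group and TMM scaling (factors of 0.8759 to 1.17). Benjamini-Hochberg adjustment ran over 8358 genes, with a threshold of 0.05. The script was tested on simulated data in which few genes changed. That test does not check the scaling where most genes differ, as they do here. A gene at 10 CPM rests on 78 to 132 reads per library, and lower levels are less precise. Lengths are those of the longest GENCODE vM21 transcript, matched for 9099 genes. Log2 CPM profiles used a prior count of 2.

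Gpnmb and the gene lists were chosen with earlier results of these data known. Named by rule were the factors, partners and neighbours, the 4 members of every other list with the smallest p in each direction, and the 10 genes of nearest profile. Marker genes are from the marker lists and were picked for the text after their values were seen. Alternatives were DESeq2 1.42.0, 3 scalings, 2 filters, a replicate block, Con replicates 2 and 3 summed, and leaving out each library. Some listed genes are not reported here by name.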

Additional observations from a re-analysis of the deposited data

How the results depend on the processing

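The log2 fold change of Gpnmb was -10.73 and lay between -10.91 and -10.59 when any 1 library was left out. It was -10.69 with DESeq2, -10.63 with Con replicates 2 and 3 summed and -11.08 with library size only, a setting that moves the median of all genes by -0.355 and the percentage of changed genes that were higher from 48.3% to 35.7% (2488 higher and 4476 lower). With library size only, 1 gene of the list of MiT/TFE factors and their control was higher, since Lamtor1 turned to -0.019. With at least 50 counts required in 3 libraries, 0 partner genes and 1 pigment cell gene were higher, as fewer genes were tested. Every other list count for pathways and neighbours stayed within 1.5 times its value under every alternative run. For the 65 other genes taken by the naming rule, 900 of 908 values kept their direction and their side of the threshold, 3 no longer passed, 4 newly passed and 1 reversed. The percentile of the spread of Gpnmb within Con was 99 among the 200 nearest genes and 98 among 100. Deviations of same-numbered libraries correlated at 0.03 or less, so the counts show no sign that replicate numbers pair the samples. This does not show that the samples were unpaired by design. With the replicate block Gpnmb was at -10.70, and 3270 genes were higher and 3496 lower, against 3310 and 3544 without it. The Gpnmb level in KO rests on 53 to 79 counts per library, so counting error there adds to the uncertainty of the fold. Spread between libraries adds to it as well, with a coefficient of variation of 24.6% in Con and 18.1% in KO.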
